A study of Homo sapiens with 8 samples.

Results

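The genes described here are the insulin-like growth factor binding proteins IGFBP1, IGFBP2, IGFBP3, IGFBP4, IGFBP5, IGFBP6 and IGFBP7, together with the ligands IGF1 and IGF2 and the receptor IGF2R. They were chosen by gene name, and every non-control probe whose RefSeq transcript maps to one of these symbols was taken. This gave 12 probes for 10 genes, out of 42405 probes and 19483 named genes on the array. Expression was profiled in U87 cells, an established human glioblastoma line, after reverse transfection of siRNA against RND3 (siRND3) or of non-silencing control siRNA (siControl). The comparison asked which transcripts respond to the loss of RND3. There were 3 siControl and 3 siRND3 arrays at 24 h, and 1 siControl and 1 siRND3 array at 48 h. The methods name a pair of siRNA oligos without saying which array received which, and the labels do not say whether replicates were separate transfections, so p-values measure the spread between these arrays, which may be technical.

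The IGF axis couples extracellular growth factor supply to growth, survival and metabolism. The ligands IGF1 and IGF2 signal through the receptor tyrosine kinase IGF1R and the PI3K and AKT branch, while IGF2R takes IGF2 to the lysosome and carries lysosomal enzymes. The secreted binding proteins hold the ligands in the extracellular space, and proteases such as PAPPA release them again by cutting the binding protein. IGFBP7 binds the ligands weakly and is better known as a secreted matrix and vessel-associated protein. In glioblastoma, IGFBP2 in particular has been studied as a marker of the tumour.

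Values are log2 normalised intensity unless stated otherwise, a difference is siRND3 minus siControl on that scale, and levels of different probes are not set against each other. A probe was well above background when the scanner software marked its spots as such. RND3 itself, which checks the labels, read 11.88, 11.91 and 11.90 on the siControl arrays at 24 h and 10.12, 10.18 and 10.42 on the siRND3 arrays, a difference of -1.66 (SE 0.10, limma adjusted p = 0.000345). At 48 h its difference was -1.65. The marker lists went only partly with the label of the line. Of 10 glial and glioblastoma markers, 6 were well above background on all 8 arrays (VIM, NES, CD44, TNC, CHI3L1 and SPARC), and GFAP and SOX2 on 0 of 8. Of 10 markers of other cell types, 6 were well above background on all 8 arrays, while KRT5, RBFOX3 and ALB were so on 0 of 8. Of the 7 markers of other cell types that were tested, PECAM1 (-0.99, limma adjusted p = 0.0216) and SYT1 (-0.49, limma adjusted p = 0.0253) were lower with siRND3 at 24 h, and their part in the results below was not tested. CDH5 (0.31, limma adjusted p = 0.0619) and PTPRC (0.57, limma adjusted p = 0.211) gave positive differences and did not pass. In the glial list, OLIG2 (-1.40, limma adjusted p = 0.00165) and CD44 (-0.58, limma adjusted p = 0.00721) were lower and NES (0.41, limma adjusted p = 0.0472) was higher. OLIG2 and PECAM1 were each well above background on 7 of 8 arrays. They read as low as 2.98 and 3.24, near background, so the sizes of their differences are uncertain. The log2 of the summed intensity of the markers of other cell types was 8.74 to 8.87 with siControl and 8.77 to 8.81 with siRND3 at 24 h, and 9.11 and 8.75 at 48 h. In bulk RNA, fewer cells of a type and less RNA per cell cannot be told apart. All arrays lay on 1 slide with siRND3 in row 1 and siControl in row 2, which means that position on the slide and knockdown cannot be told apart, and both 48 h arrays lay in column 4.

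Of the 10 genes, 7 had a probe well above background on all 8 arrays, namely IGFBP1, IGFBP2, IGFBP3, IGFBP4, IGFBP6, IGFBP7 and IGF2R. IGFBP5 and 1 of the probes of IGF2 were above background on 0 of 8 arrays. Of the 12 probes, 9 passed the filter for testing and 3 did not. Of the 9, the probes for IGF1 and IGF2 passed only through the siRND3 arrays. The plot of the values by array shows the 7 measured genes.

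**Figure D1:**
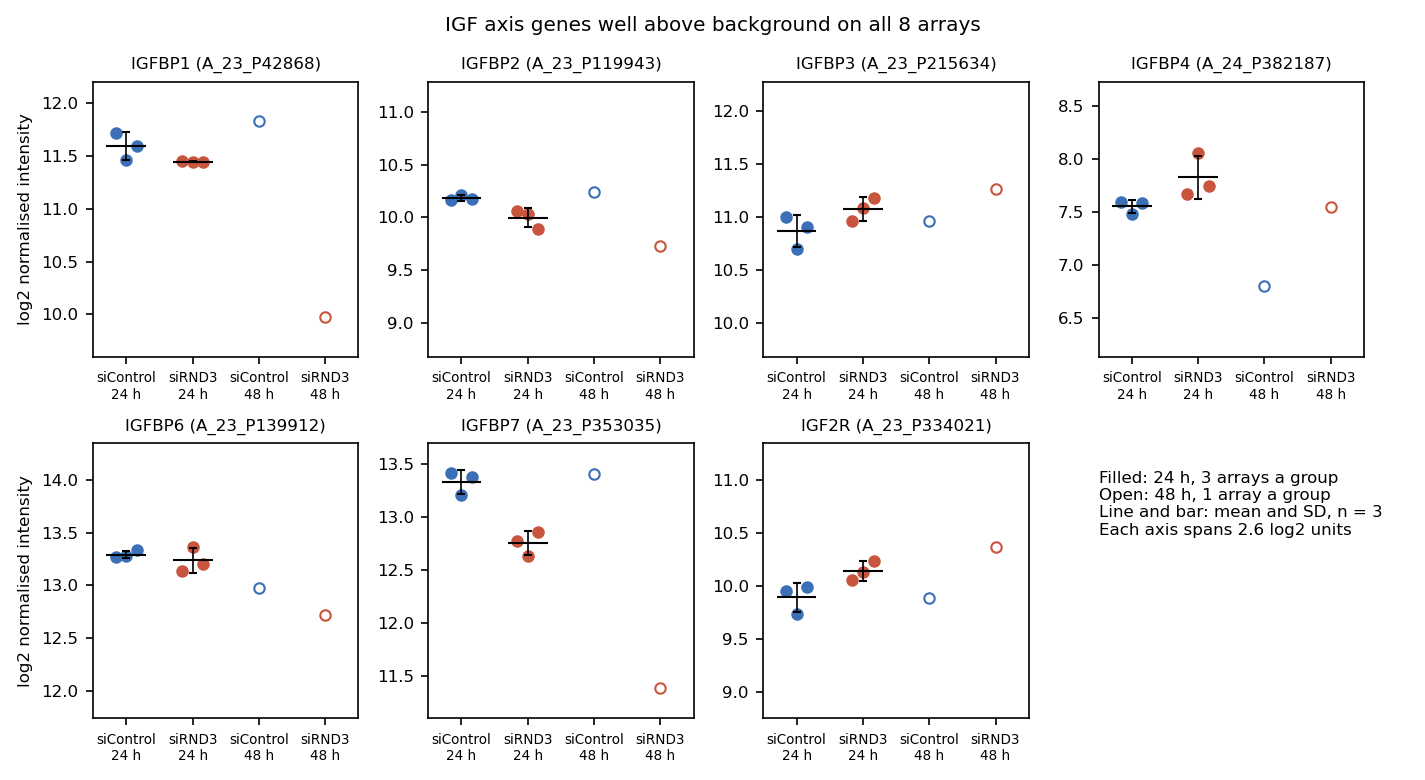
Log2 normalised intensity of the 7 genes well above background on all 8 arrays, each on an axis of the same length. Filled points are the 3 arrays a group at 24 h with their mean and SD (n = 3), and open points are the single arrays at 48 h. The siRND3 array at 48 h is the lowest of the 8 for IGFBP1 (9.98), IGFBP2 (9.73), IGFBP6 (12.73) and IGFBP7 (11.38), and the highest for IGFBP3 (11.26) and IGF2R (10.37).

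IGFBP7, the weakly IGF-binding matrix protein, was lower with siRND3 at both times and had the widest range over the 8 arrays of the 7 measured genes (2.03). The siControl arrays at 24 h read 13.41, 13.21 and 13.38 (mean 13.33 ± 0.11, SD, n = 3). The siRND3 arrays at 24 h read 12.78, 12.63 and 12.85 (mean 12.76 ± 0.11, SD, n = 3). The groups did not overlap. The difference was -0.58 (SE 0.10, 95% interval -0.81 to -0.35), which leaves 67.0% of the control intensity, with a limma adjusted p of 0.0139. The exact two-sided permutation test gave p = 0.1, the smallest that 3 against 3 arrays allow. IGFBP7 was the only 1 of the 9 tested probes called at 24 h, in a comparison where 11.6% of the 28759 tested probes were called and 6.38% were called lower. The call was lost without siControl replicate 1 (-0.54, limma adjusted p = 0.0586) or replicate 3 (-0.55, limma adjusted p = 0.0629). An additive fit of treatment and time over all 8 arrays gave -0.94. That fit takes 1 effect for both times, so its value is not a 24 h difference.

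At 48 h, the IGFBP7 probe read 13.41 with siControl and 11.38 with siRND3. This difference of -2.02 (SE 0.17, 95% interval -2.42 to -1.63) amounts to a 4.07-fold lower intensity, with a limma adjusted p of 0.000775. With 1 array a group at 48 h, the fit borrowed its spread from the arrays at 24 h. Of the 28759 tested probes, 310 (1.08%) had a lower difference at 48 h. In siControl cells the 48 h array differed from those at 24 h by 0.08 (limma adjusted p = 0.777), and in siRND3 cells it was lower than at 24 h (-1.37, SE 0.14, limma adjusted p = 0.00428).

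IGFBP1, a secreted binding protein best known from liver, where insulin lowers it, showed little difference at 24 h and a large one at 48 h. The siControl arrays at 24 h read 11.72, 11.46 and 11.59 (mean 11.59 ± 0.13, SD, n = 3). The siRND3 arrays at 24 h read 11.45, 11.44 and 11.44 (mean 11.44 ± 0.01, SD, n = 3). All 3 siRND3 arrays lay just under the lowest control, and the difference of -0.14 (SE 0.09, 95% interval -0.35 to 0.06) did not pass the test (limma adjusted p = 0.336). It was -0.08 without siControl replicate 1 and -0.57 in the additive fit. At 48 h, IGFBP1 read 11.82 with siControl and 9.98 with siRND3. The difference was -1.85 (SE 0.15, 95% interval -2.21 to -1.48, limma adjusted p = 0.000778), a 3.59-fold lower intensity. Of all tested probes, 430 (1.5%) had a lower difference.

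The change in effect between the times was itself tested. Subtracting the 24 h effect from the 48 h effect gave -1.70 for IGFBP1 (SE 0.17, limma adjusted p = 0.0178), and -1.45 for IGFBP7 (SE 0.19, limma adjusted p = 0.0264). They were 2 of the 9 tested probes called in this comparison, where 2.73% of all tested probes were called and 1.63% were called lower. Of the 28759 probes, 143 (0.497%) had a lower value than IGFBP1 and 266 (0.925%) a lower value than IGFBP7. Neither call held without any 1 of the siControl arrays at 24 h, with differences from -1.77 to -1.63 for IGFBP1 (limma adjusted p from 0.0585 to 0.0722) and from -1.49 to -1.39 for IGFBP7 (limma adjusted p from 0.0723 to 0.0785). The IGFBP7 call was also lost without siRND3 replicate 1 (limma adjusted p = 0.0534).

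At 48 h 4 of the 9 tested probes were called, 3 lower (IGFBP1, IGFBP2 and IGFBP7) and 1 higher (IGFBP4), where 19% of all tested probes were called, 9.19% lower and 9.77% higher. IGFBP2, a binding protein with a preference for IGF2 and an integrin-binding motif, was read by 10 spots on each array with a spot SD of 0.05 to 0.08. The siControl arrays at 24 h read 10.17, 10.21 and 10.17 (mean 10.18 ± 0.03, SD, n = 3), and the siRND3 arrays 10.06, 10.03 and 9.90 (mean 9.998 ± 0.09, SD, n = 3). The groups did not overlap, but the difference of -0.19 (SE 0.08, 95% interval -0.37 to -0.0023) did not pass the test (limma adjusted p = 0.174). At 48 h, IGFBP2 read 10.24 with siControl and 9.73 with siRND3. This difference of -0.51 (SE 0.13, 95% interval -0.83 to -0.19, limma adjusted p = 0.0409) leaves 70.1% of the control intensity.

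IGFBP4, a binding protein that PAPPA cuts, was the only measured member called higher at 48 h. Its promoter is shown for that reason, from RefSeq on GRCh38.p14, as the 250 bases before the gene's start at chr17:40443200-40443449 on the plus strand.

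IGFBP4: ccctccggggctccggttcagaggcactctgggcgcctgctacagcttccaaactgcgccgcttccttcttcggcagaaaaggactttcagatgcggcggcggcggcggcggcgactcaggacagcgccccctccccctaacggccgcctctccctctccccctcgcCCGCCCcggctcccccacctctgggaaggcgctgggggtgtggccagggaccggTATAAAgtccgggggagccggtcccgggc

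Capitals mark a TATA box (TATAAA), which begins 29 bases before the start and is held on either strand by 3763 of 35116 promoter windows of this length, and a GC box on the minus strand (CCGCCC, the reverse complement of GGGCGG), which begins 83 bases before it and is held by 14973 of them. The CCAAT box (CCAAT), the E-box (CACGTG), an AP-1 site (TGAGTCA), the core of the insulin response element (CAAAACA) and a forkhead core (GTAAACA) were searched on both strands, and these letters are not in this window. They are held by 32.0%, 6.34%, 4.2%, 4.3% and 2.98% of all windows, in that order. Its GC content is 71.6%, against a median of 58.0% over all windows. Of the 10 genes, 7 matched the promoter table, and IGFBP1, IGFBP7 and IGF2 did not.

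The siControl arrays at 24 h read 7.59, 7.49 and 7.58 for IGFBP4 (mean 7.56 ± 0.06, SD, n = 3). The siRND3 arrays read 7.67, 8.06 and 7.75 (mean 7.83 ± 0.21, SD, n = 3). The groups did not overlap, and replicate 2 stood above the other siRND3 arrays. The difference of 0.27 (SE 0.12, 95% interval -0.0050 to 0.55) did not pass the test (limma adjusted p = 0.185), and was 0.16 without siRND3 replicate 2. At 48 h the siControl array read 6.81 and the siRND3 array 7.55, a 1.67-fold higher intensity (0.74, SE 0.20, 95% interval 0.26 to 1.22, limma adjusted p = 0.0473). The siRND3 array at 48 h thus lay at the level of the siControl arrays at 24 h, and the siControl array at 48 h lay below them (-0.75, SE 0.16, limma adjusted p = 0.064). The calls of IGFBP2 and IGFBP4 at 48 h were lost without any 1 of the siControl arrays at 24 h (limma adjusted p from 0.0769 to 0.0887), that of IGFBP2 also without siRND3 replicate 2 (0.0517), and that of IGFBP4 also without siRND3 replicate 3 (0.0646), after scaling to the 75th percentile (0.71, limma adjusted p = 0.0621) and with no filter on dim probes (limma adjusted p = 0.0852).

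**Figure D2:**
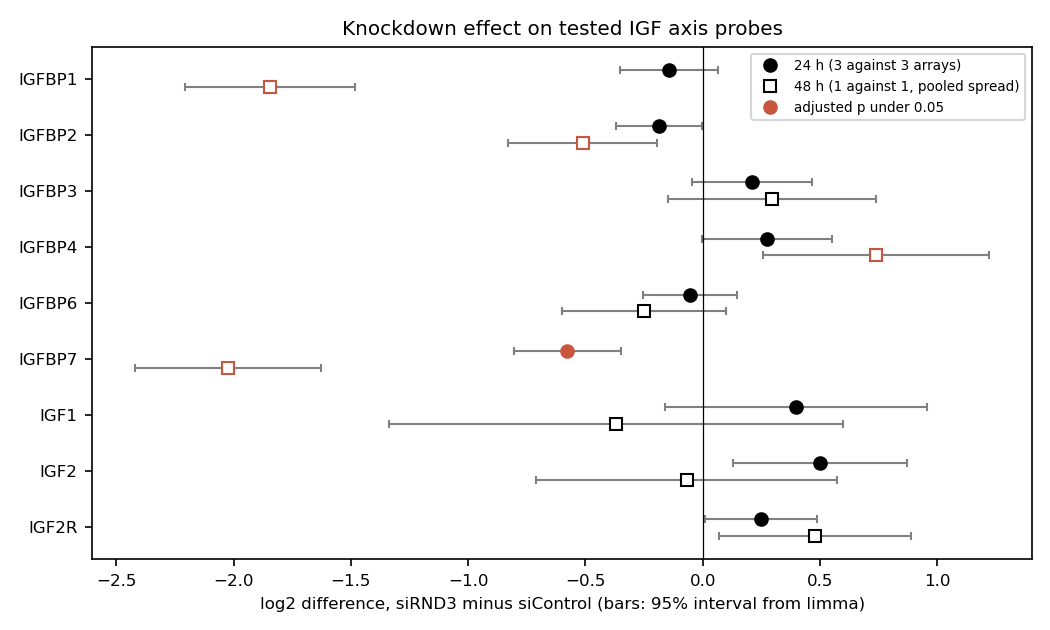
Log2 difference, siRND3 minus siControl, of the 9 tested probes, with 95% intervals from limma. Circles are 24 h (3 against 3 arrays), squares are 48 h (1 against 1 array, spread taken from the arrays at 24 h), and red marks an adjusted p under 0.05. At 48 h IGFBP1 (-1.85) and IGFBP7 (-2.02) lie farthest from 0, and IGFBP7 (-0.58) is the only red point at 24 h.

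IGFBP3, the main carrier of the ligands in blood, did not pass the test at either time. It was read by 10 spots on each array, with 10.99, 10.69 and 10.90 on the siControl arrays at 24 h (mean 10.86 ± 0.15, SD, n = 3) and 10.95, 11.08 and 11.18 on the siRND3 arrays (mean 11.07 ± 0.11, SD, n = 3). The groups overlapped, and the difference was 0.21 (SE 0.11, 95% interval -0.05 to 0.46, limma adjusted p = 0.26), or 0.12 without siControl replicate 2. At 48 h IGFBP3 read 10.96 with siControl and 11.26 with siRND3 (0.29, 95% interval -0.15 to 0.74, limma adjusted p = 0.358).

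IGFBP6, which prefers IGF2 over IGF1, had the smallest difference of the tested probes at 24 h. Its siControl arrays at 24 h read 13.26, 13.28 and 13.33 (mean 13.29 ± 0.04, SD, n = 3), and its siRND3 arrays 13.14, 13.37 and 13.21 (mean 13.24 ± 0.12, SD, n = 3). The siRND3 values lay on both sides of the controls, with a difference of -0.05 (95% interval -0.26 to 0.15, limma adjusted p = 0.724). At 48 h, IGFBP6 read 12.98 with siControl and 12.73 with siRND3 (-0.25, 95% interval -0.60 to 0.10, limma adjusted p = 0.316).

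Over time, 0 of the 9 probes were called in siControl cells, where 3.56% of tested probes were called, and 3 were called in siRND3 cells, where 9.03% were called and 6.45% were lower. In siControl cells, 3 of the 9 had an unadjusted limma p under 0.05, as had 6226 of all 28759 tested probes. They were IGFBP4 (-0.75), IGFBP6 (-0.31) and IGF2 (0.72, near background and tested only through its siRND3 arrays). IGFBP4 was called when normexp, the authors' values or array weights were used, or when siRND3 replicate 2 was left out. In siRND3 cells, IGFBP1 (-1.47, SE 0.12, limma adjusted p = 0.00319), IGFBP6 (-0.51, SE 0.12, limma adjusted p = 0.048) and IGFBP7 (-1.37) were lower at 48 h than at 24 h. The IGFBP6 call was lost in 8 of 13 alternatives, among them leaving out any 1 siControl array at 24 h (limma adjusted p from 0.092 to 0.0974), siRND3 replicate 2 (0.0581) or siRND3 replicate 3 (0.0796).

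IGF2R, the receptor that clears IGF2, was higher on every siRND3 array than on every siControl array at 24 h but did not pass the test. The siControl arrays read 9.95, 9.74 and 9.995 (mean 9.90 ± 0.14, SD, n = 3), and the siRND3 arrays 10.05, 10.14 and 10.24 (mean 10.14 ± 0.09, SD, n = 3). The difference was 0.25 (SE 0.10, 95% interval 0.01 to 0.49, limma adjusted p = 0.162). At 48 h IGF2R read 9.89 with siControl and 10.37 with siRND3 (0.48, SE 0.17, 95% interval 0.07 to 0.89, limma adjusted p = 0.109). Counting all 9 tested probes, the groups at 24 h did not overlap for 6, namely IGFBP1, IGFBP2, IGFBP4, IGFBP7, IGF2 and IGF2R, where this held for 34.4% of all tested probes. Of these 6, IGF2 had passed the filter only through the siRND3 arrays, where it was the brighter.

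The ligands were near background. IGF1 probe A_23_P13907 was well above background on 2 of 8 arrays and was not tested. IGF1 probe A_24_P304423 was so on 6 of 8 and read 3.48, 4.17 and 3.68 with siControl at 24 h and 4.27, 3.79 and 4.46 with siRND3, so that the groups overlapped (0.40, SE 0.23, limma adjusted p = 0.322). IGF2 probe A_23_P150609 was above background on 0 of 8 arrays. IGF2 probe A_23_P421379 was so on 6 of 8, with 3.08, 3.08 and 3.27 for siControl at 24 h and 3.78, 3.84 and 3.31 for siRND3. Its difference of 0.50 (SE 0.15, limma adjusted p = 0.0889) did not pass the test and changed sign with normexp background correction (-0.0059) and in the authors' log2 values (-0.043). On neither of these probes was the siRND3 array at 48 h well above background, so no fold is given there. IGFBP5 read at most 3.26 on any of the 8 arrays. The median signal of the IGF1, IGF2 and IGFBP5 probes was 30.5 to 49 intensity units, over a local background of 25 to 37.

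Over the 8 arrays, which share 4 groups, IGFBP1 and IGFBP7 had a Pearson correlation of 0.95, IGFBP2 and IGFBP7 of 0.91, and IGFBP3 and IGF2R of 0.95. IGFBP2 and IGF2R ran against each other (-0.94). The siRND3 array at 48 h lay apart from all other arrays for IGFBP1 (9.98, against 11.44 to 11.82) and IGFBP7 (11.38, against 12.63 to 13.41). That single array therefore weighs heavily in the correlations of these genes, and how far it sets them was not tested. Among 18113 probes of other genes well above background on all 8 arrays, the profiles most like IGFBP7 were those of DUSP6, a phosphatase of ERK (0.998), RBPJ, the DNA-binding partner of Notch (0.998), and HEBP2, a haem-binding protein (0.997). Their differences were -0.38, -0.33 and -0.16 at 24 h and -1.29, -1.07 and -0.55 at 48 h, in that order.

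Genes around the axis were taken from a list of 49, of which 48 were on the array and 36 were tested. At 24 h, 3 were higher and 9 lower (33.3% of those tested), where 16.4% of the 14805 tested genes were called, 7.16% higher and 9.26% lower. The list was chosen with earlier results of these data known, so these shares cannot test whether the list stands out. The 9 lower genes include CCN4, which entered the tests only through the siControl arrays, where it was the brighter. With the brightest tested probe of each gene, the median difference of the list was -0.03, against 0.04 over all tested genes. The count of 12 was 4, 5 and 6 without siControl replicate 1, 2 and 3, and 7, 6 and 5 without siRND3 replicate 1, 2 and 3. It was 5 with no filter on dim probes. Calls over all tested probes fell as well under these settings, from 3350 to between 1379 and 2574 with an array left out and to 2399 with no filter.

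The proteases of binding proteins and their inhibitors had 4 of 7 tested genes called, each of them lower, with a median of -0.34. Of all tested genes, 9.26% were called lower. These genes belong to the list chosen with earlier results known, so this share is not a test of them. PAPPA, a protease that cuts IGFBP4, averaged 10.64 with siControl and 9.003 with siRND3 at 24 h (-1.64, SE 0.11, limma adjusted p = 0.000495), and read 11.24 and 8.70 at 48 h (-2.54, limma adjusted p = 0.000567). STC2 and STC1, the stanniocalcins that inhibit PAPPA, were lower as well. STC2 fell by 0.68 on the log2 scale at 24 h (SE 0.10, limma adjusted p = 0.00811) and by 1.96 at 48 h, and STC1 fell by 0.41 (SE 0.09, limma adjusted p = 0.035) and by 1.25. The effect on STC2 differed between the times (-1.28, limma adjusted p = 0.0332). The change in effect was -0.90 for PAPPA and -0.84 for STC1, and neither passed the test. Each of these changes in effect rests on 1 array a group at 48 h, and calls in that comparison were sensitive to single arrays at 24 h. ADAM12 was called through 1 of its 3 tested probes (A_33_P3310929, -0.34, limma adjusted p = 0.0324), while the other probes gave -0.05 and -0.07. HTRA1 (-0.08), CTSD (-0.02) and ADAM28 (0.28) did not pass.

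Among other proteins with an IGFBP-type domain, 1 of 8 tested genes was higher and 2 were lower, against 7.16% and 9.26% of all tested genes. CCN2, the connective tissue growth factor, was lower by -0.78 at 24 h (SE 0.11, limma adjusted p = 0.00775) and -1.91 at 48 h. CCN4 was well above background on all 4 siControl arrays and on 0 of 4 siRND3 arrays, so its fold is not well measured. At 24 h its siRND3 mean of 3.01 was 2.02-fold lower as read (limma adjusted p = 0.0443). At 48 h it was 4.32-fold lower with its siRND3 value raised to the dimmest signal well above background on that array. That signal can come from any probe, so neither fold is a strict lower limit for CCN4. CCN4 had entered the tests only through the siControl arrays, where it was the brighter, so its place among the genes called lower adds no support. CCN5, which lacks the last domain of the family, was higher (0.60, SE 0.11, limma adjusted p = 0.0217, and 1.22 at 48 h).

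Of 7 tested receptors and adaptors, 2 were called, both lower, where 9.26% of all tested genes were called lower. IRS1, the docking protein of IGF1R, was called through A_24_P802145 (-0.54, limma adjusted p = 0.0373) and not through A_24_P225679 (-0.37, limma adjusted p = 0.085). The adaptor SHC1 was called through A_23_P200443 (-0.33, limma adjusted p = 0.0434) and not through A_24_P68585 (-0.39, limma adjusted p = 0.151). IGF1R itself (0.41, limma adjusted p = 0.0595) and INSR (-0.26, limma adjusted p = 0.108) did not pass. Chosen after their values were seen, 3 genes of this role were called at 48 h but not at 24 h. Over all tested probes, 19% were called at 48 h and 11.6% at 24 h. The adaptors GRB10 (A_23_P122863, 1.12, limma adjusted p = 0.00209) and IRS2 (0.72, limma adjusted p = 0.0165) were higher and GRB14 (-1.98, limma adjusted p = 0.00582) was lower. The effect on GRB10 differed between the times through that probe (0.91, limma adjusted p = 0.037) and not through A_24_P235266 (0.95, limma adjusted p = 0.0507). The change in effect on GRB10 also rests on 1 array a group at 48 h. In the PI3K branch, 2 of 11 tested genes were called, both higher (18.2%, against 16.4% of all tested genes called in either direction). They were PDPK1, the kinase upstream of AKT, through A_24_P222599 (0.39, limma adjusted p = 0.0447, against 0.28 for its other probe), and FOXO4, a transcription factor that AKT keeps out of the nucleus (0.62, limma adjusted p = 0.0255).

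Of the IGF2 mRNA-binding proteins, IGF2BP2 was lower at 24 h through both of its probes (-0.51, limma adjusted p = 0.00657, and -0.56, limma adjusted p = 0.0184). IGF2BP3 (-0.18, limma adjusted p = 0.25) did not pass at 24 h and was called lower on the single arrays at 48 h (-0.77, limma adjusted p = 0.0176). IGFALS, the acid-labile subunit of the ternary complex in blood, gave -0.24 (limma adjusted p = 0.585). None of the 4 imprinted neighbours of IGF2 on the array was tested.

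**Figure D3:**
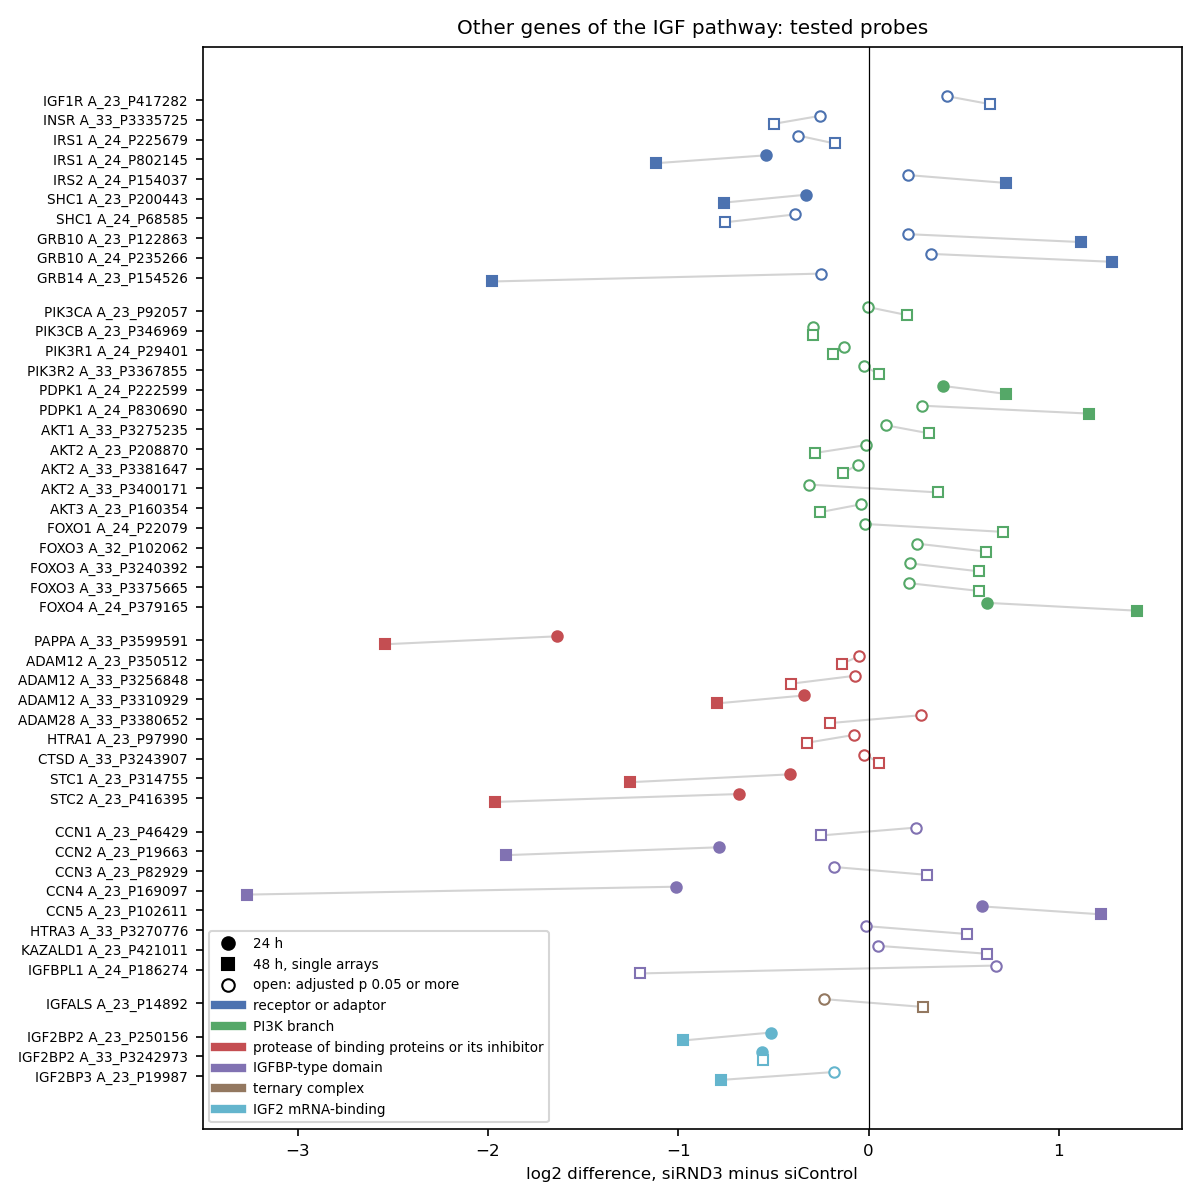
Log2 difference, siRND3 minus siControl, of the tested probes of the pathway list by role. Circles are 24 h (3 against 3 arrays), squares are 48 h (single arrays), and filled symbols have a limma adjusted p under 0.05. PAPPA (-1.64), STC2 (-0.68) and STC1 (-0.41) lie left of 0 at both times, and the measured CCN4 values rest on siRND3 arrays that were not well above background.

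The differences of IGFBP1 and IGFBP7 at 48 h passed the test under all 13 alternatives, as shown in the plot of settings. Of these, 10 leave the values of the single 48 h arrays as they are, so that only the error and the p can move, and the narrow range is fixed by that. They ranged from -1.86 to -1.82 for IGFBP1 (limma adjusted p from 1.78e-05 to 0.00971) and from -2.02 to -2.01 for IGFBP7 (limma adjusted p from 2.44e-05 to 0.00828).

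**Figure D4:**
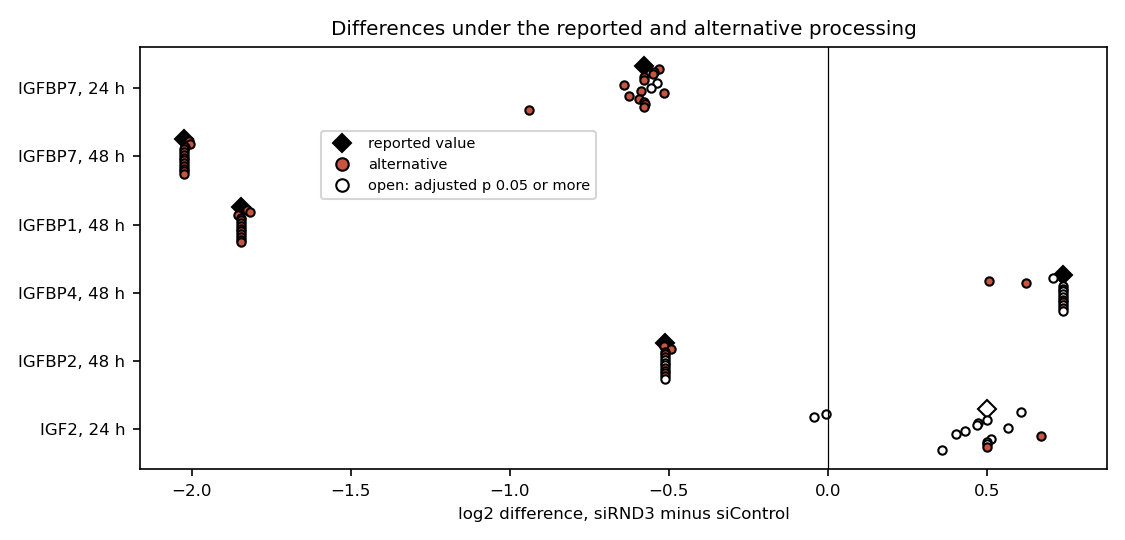
Log2 difference, siRND3 minus siControl, of 6 results under the reported processing (diamond) and each alternative (circle), with open symbols for an adjusted p of 0.05 or more. IGFBP7 and IGFBP1 at 48 h stay filled throughout, and IGF2 at 24 h, near background, lies at 0.50 as reported and near 0 under 2 alternatives. The circles at 24 h include the additive fit, which takes in the 48 h arrays.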

How the data were processed

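Total RNA of U87 cells was hybridised to 8 human Agilent arrays of 1 colour. The authors deposited Feature Extraction 10.7.3.1 scanner files with spot intensity on a linear scale, background-corrected within each array, and a table of log2 values, which had the rank order of the spot median signal on every array (lowest Spearman correlation 1) and for which their methods state quantile normalisation.

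The processed intensity was put on the log2 scale and quantile-normalised over the 8 arrays. Control spots (4259 of 62976) and spots marked as outliers (0.364% to 0.53%) were left out, and spots of a probe were averaged. A probe was well above background on an array when at least 50% of its spots were so marked (68.3% to 70.7% of probes per array). A probe entered the tests when this held on each of the 3 siControl or each of the 3 siRND3 arrays at 24 h, which left 28759 probes. No spot was saturated, and precision is limited by how few arrays there are. Probes were named through RefSeq transcripts (25422 of 42405 matched), and probes of the same gene were kept apart in the tests. The markers used the brightest probe of each gene, and the medians over genes the brightest tested probe. A pathway gene counted as changed when at least 1 probe passed and none passed the other way.

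limma 3.58.1 in R 4.3.3 was fitted over all tested probes, with Benjamini-Hochberg adjustment and a threshold of 0.05, on the 6 arrays at 24 h without covariates. A fit of 4 groups on all 8 arrays gave the 48 h, time and interaction comparisons, in which the spread at 48 h is taken from the arrays at 24 h. The folds of CCN4 set the siControl mean against, per siRND3 array, its own value or, if higher, the dimmest signal of any probe that was well above background on that array. The code was tested on simulated data.

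The members, pathway and marker lists, tests and naming rule (the members, pathway genes called at 24 h, and the 3 genes most correlated with the member of widest range) were chosen with earlier results of these data known. Alternatives were scaling to the 75th percentile, normexp (offset 50, on the spot median), the authors' log2 values, no filter or a stricter filter, array weights, each array at 24 h left out, the replicate number as a block, normalisation of the 6 arrays at 24 h, SAM at a false discovery rate of 5%, which the methods state, an additive fit of 8 arrays, and the mean of a gene's probes.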

Additional observations from a re-analysis of the deposited data

Results flagged for a closer look

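The effect of siRND3 differed between 48 h and 24 h for IGFBP1, by -1.70 on the log2 scale (11.44 against 11.59 at 24 h and 9.98 against 11.82 at 48 h, siRND3 against siControl), and for IGFBP7, by -1.45 (12.76 against 13.33 at 24 h and 11.38 against 13.41 at 48 h). Each was a test of the interaction in limma, and each rests on 1 array per group at 48 h.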

How the results depend on the processing

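With 3 arrays a group at 24 h and 1 at 48 h, counts of members called were sensitive to single arrays. Leaving out 1 array at 24 h in turn, the members called numbered 0 to 2 at 24 h (1 as reported), 2 to 4 at 48 h (4), 0 to 2 for the change in effect between the times (2), 0 to 1 over time in siControl cells (0) and 2 to 3 over time in siRND3 cells (3), and pathway genes 4 to 7 (12). Calls over all tested probes moved too, from 3350 to between 1379 and 2574 at 24 h, from 5452 to between 4087 and 5514 at 48 h, from 785 to between 7 and 273 for the change in effect, from 1023 to between 73 and 905 over time in siControl cells and from 2598 to between 1446 and 2394 over time in siRND3 cells. SAM called 2 members at 24 h, IGFBP7 and IGF2 (adjusted p = 0.0418 by SAM over all exact assignments), and IGF2 was also called without siRND3 replicate 3 (0.67, limma adjusted p = 0.0188). IGF2 entered the tests only through the siRND3 arrays, where it was the brighter, so these calls add no support. IGF2 at 24 h reversed under normexp (-0.0059) and in the authors' values (-0.043). Over time in siControl cells, normexp, the authors' values and array weights each gave 1 member, IGFBP4. With no filter on dim probes the pathway count was 5. The cause of these changes was not tested.

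Same-numbered arrays of the siControl and siRND3 groups did not deviate together in all pairs (correlations 0.0020, -0.01 and 0.13), so the numbers were not taken to pair the samples. With the replicate block, members called were 2 at 48 h (IGFBP1 and IGFBP7), 0 for the change in effect and 0 over time in siRND3 cells, and pathway genes were 6. The limma adjusted p with the block was 0.0989 for IGFBP2 and 0.106 for IGFBP4 at 48 h, 0.115 for the change in effect of IGFBP1 and of IGFBP7, and 0.0518 for IGFBP1 and for IGFBP7 over time in siRND3 cells. Over all tested probes, the block gave 1651 calls at 24 h against 3350, 3505 against 5452 at 48 h, 0 against 785 for the change in effect, 0 against 1023 over time in siControl cells and 1 against 2598 over time in siRND3 cells. IGFBP7 at 24 h kept its call in 14 of 16 alternatives. Among the 14 is the additive fit (-0.94), which takes in the 48 h arrays and is not a 24 h difference. The other alternatives gave differences from -0.64 to -0.52.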
